A study of Mus musculus with 16 samples.

Results

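The genes described here are 10 regulators of cell growth and division in thymic epithelium: Myc and Mycn, Ccnd1 (cyclin D1), Rb1, E2f3, Trp53 (p53), Mdm2, Cdkn1a (p21), Cdkn2a and Stat3. They were chosen by name, as the rows of the deposited tables that carry these symbols, and the rule that picks the rows uses no measured value. All 10 were found among the 23420 gene entries of the count table, all 10 also had an RPKM value, and all 10 passed the filter on low counts in each of the 12 comparisons.

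RNA was sequenced from 3 sorted populations of the mouse thymic epithelium, the stroma in which T cells mature: cortical cells (cTEC), medullary cells with little MHC class II on their surface (mTEClo) and medullary cells with much of it (mTEChi). Each population came from wild-type mice (WT) and from psmb11-/- mice (KO below), which lack a catalytic subunit of the thymoproteasome, a form of the proteasome made by cTEC. There were 2 libraries in each cTEC group and 3 in each mTEC group, 16 libraries in 6 groups. The labels give the strain of all animals as C57BL/6-derived BAC, without saying what the last word stands for, and name no Cre. Sorted cells were CD45- EpCAM+, and Ly51 and the lectin UEA1 separated cortical from medullary cells. Sample labels put the animals at 6 to 8 weeks of age and the series' description counts 11 thymi, whereas the protocol speaks of 7 days and 14 mice. How many mice a library pools is not stated, so p-values measure the spread between these libraries, which may be partly technical.

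These genes form linked control circuits. Cyclin D1 activates CDK4 and CDK6, which phosphorylate the retinoblastoma protein Rb1 and so release E2F factors such as E2f3, the activators of genes for DNA replication. Myc and N-Myc pair with Max to drive growth and ribosome synthesis. p53 induces Cdkn1a, an inhibitor of cyclin-dependent kinases, and Mdm2, the ligase that marks p53 for degradation. Cdkn2a encodes p16INK4a, which inhibits CDK4 and CDK6, and p19ARF, which inhibits Mdm2. Stat3 carries signals of the interleukin-6 family and of the epidermal growth factor receptor to the nucleus, and thymic epithelium depends on such growth signals to keep its size and its medulla.

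Stretches upstream of 4 of these genes carry short motifs of the same circuits. They are printed to show E2F motifs upstream of 3 members of the cell cycle circuit and p53 half-sites upstream of Cdkn1a. Cdkn1a was the member whose genotype difference was called unlike between cTEC and mTEClo, a call lost under some alternatives given below. A link of that call to the motifs was not tested. The half-sites of Mdm2 and Trp53 are given by position only. Sequences are from RefSeq on GRCm38.p6, which has the coordinates of mm10, read 5′ to 3′ on the gene's strand, with the motif in capitals. The first 3 hold E2F motifs (TTTCCCGC, TTTCGCGC, TTTGCCGC or TTTGGCGC on either strand), and the last holds 2 p53 half-sites. In Mycn, 2 of the 3 E2F matches overlap and are printed as 1 run of capitals.

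Mycn, chr12:12941972-12942044, minus strand: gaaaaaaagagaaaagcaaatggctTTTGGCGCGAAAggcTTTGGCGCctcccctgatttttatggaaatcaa
Cdkn2a, chr4:89294686-89294743, minus strand: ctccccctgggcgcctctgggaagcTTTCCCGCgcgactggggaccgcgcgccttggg
E2f3, chr13:29986064-29986099, minus strand: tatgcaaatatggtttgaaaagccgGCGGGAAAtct
Cdkn1a, chr17:29090881-29090962, plus strand: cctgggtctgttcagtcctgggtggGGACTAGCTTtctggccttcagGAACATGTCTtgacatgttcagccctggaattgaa

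Each window searched ran from 250 bases before an annotated start to 50 bases after it, and windows were found for 7 of the 10 members, not for Myc, Ccnd1 or Rb1. Cdkn1a, Cdkn2a and E2f3 had more than 1 window, and positions count from the start in the window that held the match. The Cdkn1a matches were not in its window at chr17:29093519-29093818. That of Cdkn2a was not in its window at chr4:89282143-89282442. The E2F and E-box matches of E2f3 were in different windows. The E2F motif was in 744 of 32851 windows (2.26%). The Mycn matches lay at -183 to -176, -179 to -172 and -168 to -161 from its start, that of Cdkn2a at -99 to -92, and that of E2f3 at -11 to -4. The p53 half-site was in 8.36% of windows and in a window each of Cdkn1a (first bases at -73 and -51), Mdm2 (-186) and Trp53 (-75). Half-sites were matched exactly to RRRCWWGYYY, where R is A or G, W is A or T and Y is C or T. A full p53 site, 2 exact half-sites side by side with no spacer, was in 3 windows (0.00913%), none of them a member's. A near match is not counted by this rule. In Cdkn1a the bases right after GAACATGTCT, tgacatgttc, depart from the half-site at their first base alone. The Myc-Max E-box CACGTG was in 7.15% of windows, among them one of E2f3 (-24) and one of Trp53 (10). The STAT motif TTCNNNGAA was in 8.3% of windows and in no member's. A match describes the letters only; binding was not measured.

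Each cTEC library held 67810047 to 94959679 gene counts, each mTEClo library 95777929 to 115251165 and each mTEChi library 64753610 to 146707262. Levels are given as CPM, the gene's count relative to all gene counts of its library, scaled by TMM over the 16 libraries. Psmb11, the gene targeted in the KO, was at 170 and 139 CPM in cTEC WT and at 2.11 and 0 CPM in cTEC KO, where 0 counts allow up to 0.0421 CPM (3 counts). It was at 8.06 to 13 CPM in the WT and 0.715 to 1.63 CPM in the KO libraries of mTEC. Every library labelled KO thus lay below the WT libraries of its population, though the part of the gene that was deleted is not given. The cTEC KO libraries stood apart from each other. Their log2 CPM correlated at r = 0.926 over 16829 genes, against 0.978 for the cTEC WT pair and 0.990 or more for each mTEC pair. Cortical markers summed to 4094 to 4997 CPM in cTEC KO against 6258 to 7466 CPM in cTEC WT, and medullary markers to 4177 to 4376 against 3424 to 3502 CPM. Aire, the medullary regulator of self-antigens, stood at 107 and 44.2 CPM in the KO libraries of cTEC, at 13.7 and 10.6 CPM in the WT ones and at 1251 to 1642 CPM in mTEChi. The part these differences play in the cTEC results below was not tested.

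Compared per length, Stat3 was the most abundant of the 10 and Mycn the least. In the authors' RPKM (reads scaled by gene length and library size), the Stat3 mean was 53.4 ± 2.35 in cTEC WT (SD, n = 2), 87.0 ± 3.52 in mTEClo WT and 119 ± 2.98 in mTEChi WT (SD, n = 3 each), the last above 98.7% of the 23063 genes of that table. Mycn was at 0.137 ± 0.0265, 0.206 ± 0.0805 and 1.56 ± 0.232 RPKM in the same groups, the last above 40.0% of genes. Cdkn1a (27.3, 62.7 and 70.3 RPKM), Mdm2 (32.9, 32.3 and 62.5), Trp53 (34.996, 40.1 and 48.9) and Myc (29.2, 29.5 and 24.6) lay between them. So did Rb1 (21.2, 20.5 and 25.1 RPKM), Ccnd1 (17.8, 29.8 and 22.05), Cdkn2a (2.39, 11.9 and 19.7) and E2f3 (2.63, 2.53 and 2.24).

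**Figure D1:**
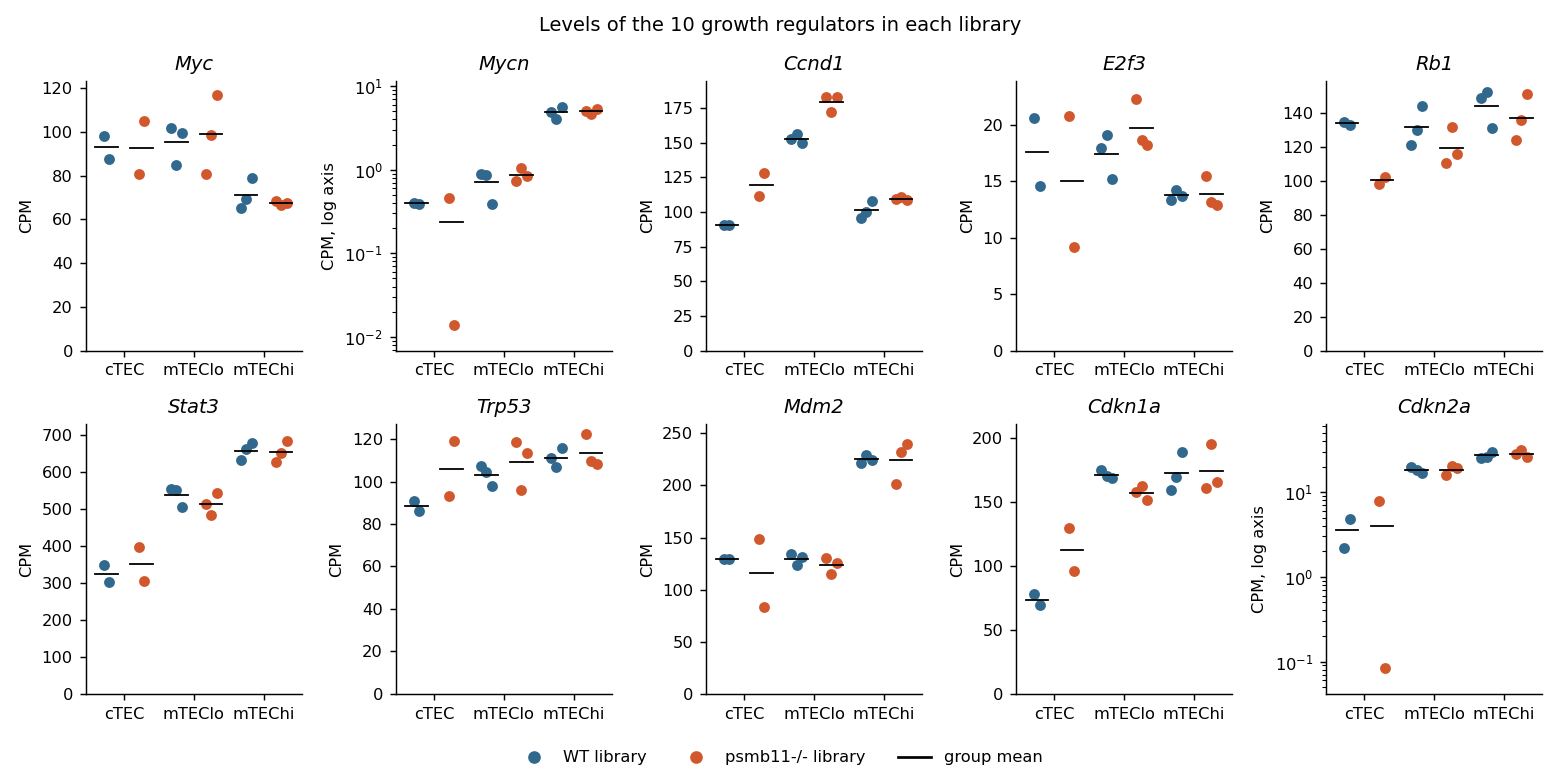
CPM of each of the 10 genes in the 16 libraries, by population on the horizontal axis. Points are libraries, blue for WT and orange for psmb11-/-, and black lines are group means. Mycn and Cdkn2a are on log axes, where cTEC KO 2 sits far below the other libraries at 0.014 and 0.0842 CPM.

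The population differences that rest on the most libraries were those between the medullary populations. Several members differed more between cTEC and mTEChi, as given below. In mTEChi against mTEClo, Mycn, Stat3, Mdm2 and Cdkn2a were higher and Myc, Ccnd1 and E2f3 lower, while Rb1, Trp53 and Cdkn1a did not pass the test. The test was edgeR's quasi-likelihood F test on the counts of the 12 mTEC libraries, adjusted by Benjamini and Hochberg over all 19816 genes tested, with calls at an adjusted p under 0.05. In WT, 4 of 10 members were called higher, where 42.8% of all genes were, and 3 lower, where 36.8% were. In KO, 4 were called higher, where 43.2% of all genes were, and 3 lower, where 37.2% were. The 7 members called were the same in both genotypes, with the same direction. Since most genes were called between these populations, the count of members is close to the background, and the description rests on sizes. The median log2 fold change over all genes was 0.08 in WT and 0.09 in KO, and rose to 0.25 and 0.28 with DESeq2's size factors. Each of the 7 stayed on its side of that median in all 10 alternatives tried in WT and all 11 in KO. In bulk RNA, a change in the share of cells that express a gene cannot be told apart from a change per cell.

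**Figure D2:**
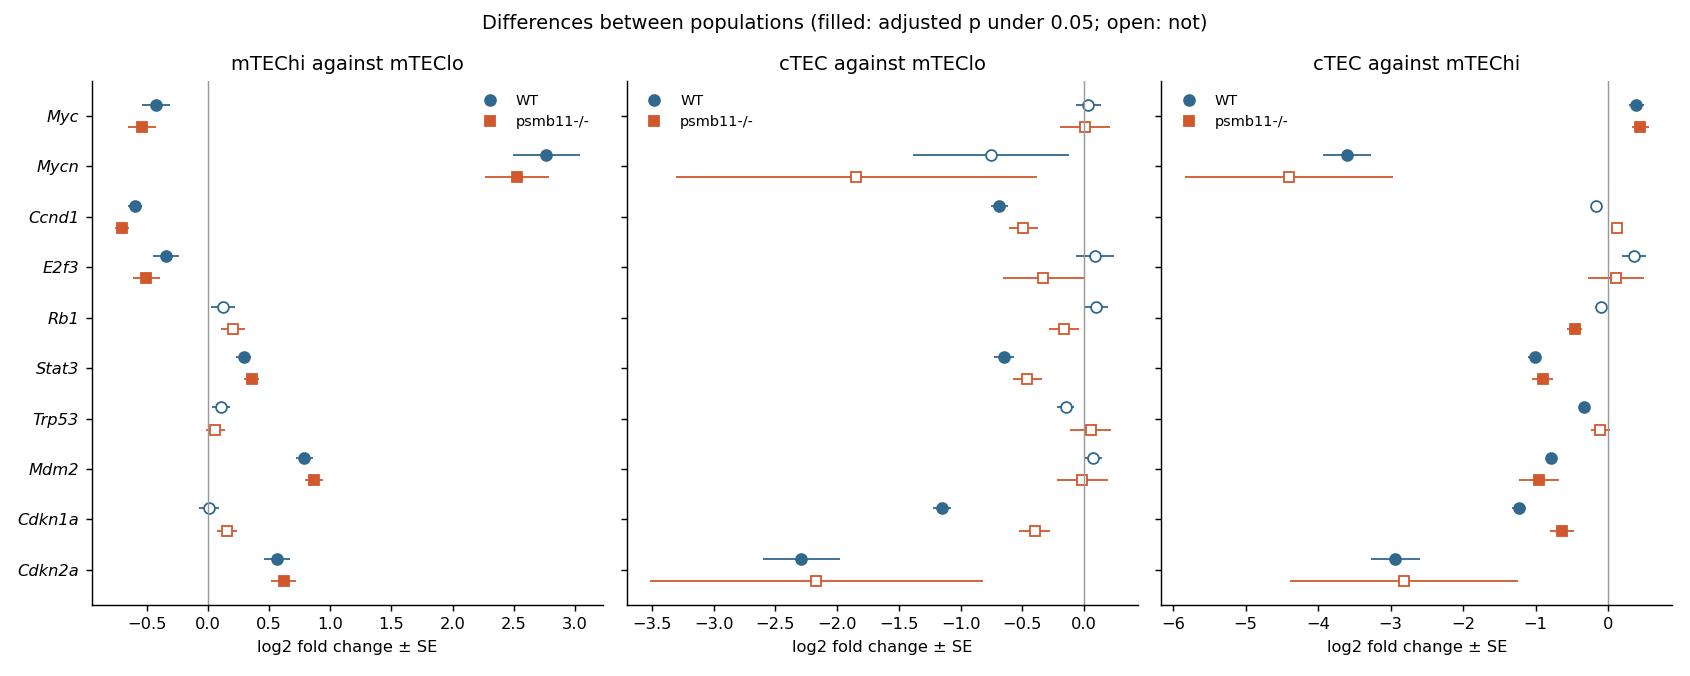
Log2 fold changes with their SE for the 10 genes between populations, mTEChi against mTEClo, cTEC against mTEClo and cTEC against mTEChi from left to right. Blue circles are WT and orange squares psmb11-/-, filled where the adjusted p was under 0.05. The mTEChi against mTEClo panel has 7 filled symbols in each genotype, and the orange error bars of Mycn and Cdkn2a are wide in the panels with cTEC.

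Myc and Mycn, whose products each pair with Max to drive growth, differed in opposite directions. Myc was at 65.3, 69.4 and 78.8 CPM in mTEChi WT and at 102, 84.7 and 99.5 CPM in mTEClo WT. The corresponding KO values were 68.4, 66.8 and 67.7 CPM in mTEChi and 80.7, 98.8 and 117 CPM in mTEClo. The mTEChi libraries all lay below the mTEClo libraries, with a log2 difference of -0.43 (SE 0.11, adjusted p = 0.00256) in WT and -0.54 (SE 0.11, adjusted p = 3.88e-04) in KO by edgeR's test. In WT the call was narrowly missed with log2(RPKM + 0.1) in limma and no filter (adjusted p = 0.052). Mycn was at 4.89, 4.07 and 5.6 CPM in mTEChi WT against 0.877, 0.86 and 0.393 CPM in mTEClo WT. In KO it was at 5, 4.69 and 5.34 CPM against 0.738, 1.04 and 0.834 CPM. No library of one population reached the other, and the log2 fold change was 2.77 (SE 0.27, adjusted p = 1.67e-07) in WT, a 6.82-fold difference, and 2.53 (SE 0.26, adjusted p = 3.54e-07) in KO. Per length, Mycn made up 5.22% to 6.86% of the summed Myc and Mycn RPKM in the 6 mTEChi libraries, 0.364% to 0.971% in mTEClo and 0.0122% to 0.521% in cTEC.

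In cTEC, Myc was at 98.2 and 87.8 CPM in WT and 80.6 and 105 CPM in KO, within the range of mTEClo. Mycn was at 0.403 and 0.392 CPM in WT, and at 0.456 and 0.014 CPM in KO. The last value is a single count, below the 0.0421 CPM of 3 counts in that library, so the 2 KO libraries give no common level.

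Partners of Myc were called in both directions between the medullary populations. Of all genes, 42.8% were higher and 36.8% lower in mTEChi WT, and 43.2% and 37.2% in KO. Of the 9 other network genes tested, 2 were higher and 6 lower in mTEChi WT, with a median log2 fold change of -0.45 against 0.08 for all genes, and 2 and 6 were so in KO. The higher were Mxd1 (1.48) and Mxd3 (2.12), which compete with Myc for Max. Among the lower were Max itself (-0.75), Mxi1 (-1.24) and Mnt (-0.98), the last 2 also antagonists of Myc. Of 22 genes known as Myc targets, 6 were higher and 6 lower in mTEChi WT, with a median of 0.04, and 5 and 6 in KO. Tfrc, the transferrin receptor, was highest in its change among the 3 named by smallest p (1.89, beside Nme1 at 0.67 and Pa2g4 at 0.54), and Cad of pyrimidine synthesis was lower (-0.68).

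Cyclin D1 was lower in mTEChi than in mTEClo in both genotypes. Ccnd1 was at 153, 156 and 150 CPM in mTEClo WT and 95.9, 100 and 108 CPM in mTEChi WT. In KO it was at 183, 172 and 183 CPM in mTEClo and 109, 111 and 108 CPM in mTEChi. The log2 fold change was -0.60 (SE 0.06, adjusted p = 1.31e-07) in WT and -0.71 (SE 0.06, adjusted p = 1.83e-08) in KO, called in each alternative. Its lowest group was cTEC WT, at 90.4 and 90.3 CPM, below mTEClo WT by a log2 difference of -0.69 (SE 0.07, adjusted p = 9.24e-05). Against mTEChi WT it was -0.16 (SE 0.07, adjusted p = 0.0831), though called with DESeq2's size factors (-0.22, adjusted p = 0.026) and in the RPKM fits. The median over all genes was -0.24 in that comparison, and as low as -0.50 under the alternatives. Relative to that median Ccnd1 lay at 0.08, and between -0.088 and 0.276 under the alternatives, so these calls do not place it below the typical gene. All neighbouring groups in the order of Ccnd1 means were free of overlap. Ccnd1 shares 1100 of its 4709 exon bases with LTO1 on the opposite strand, the longest shared stretch of any member. The libraries do not keep the strand, and the deposited counts hold no gene of that name, so reads there cannot be assigned to one gene.

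The other D-type cyclins were called in opposite directions. Of 8 further cyclins and kinases of the G1 phase, 3 were higher and 3 lower in mTEChi WT (median 0.11), where 42.8% and 36.8% of all genes were. In KO 4 were higher and 3 lower, where 43.2% and 37.2% of all genes were. The genes named next are from WT. Ccnd2 was higher (log2 fold change 2.13), as were the E-type cyclins Ccne1 (1.25) and Ccne2 (2.16), which act with CDK2 at the entry to S phase. Ccnd3 (-0.84), Cdk4 (-0.61) and Cdc25a (-0.29), the phosphatase that activates CDK2, were lower.

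Rb1, the brake on E2F, did not pass the test across the medulla. It was at 121, 130 and 144 CPM in mTEClo WT and at 148, 152 and 131 CPM in mTEChi WT, and the groups overlapped. In KO the values were 110, 131 and 116 CPM in mTEClo and 124, 136 and 151 CPM in mTEChi. The log2 fold change of 0.12 (SE 0.10, adjusted p = 0.260) in WT and 0.20 (SE 0.10, adjusted p = 0.0691) in KO missed the threshold of edgeR's test. In KO it passed where the 6 KO mTEC libraries were fitted alone with the replicate number as a block (0.22, adjusted p = 0.034), without mTEClo KO 2 (0.29, adjusted p = 0.015) or mTEChi KO 1 (0.27, adjusted p = 0.028), and with DESeq2's size factors (0.29, adjusted p = 0.011). The median over all genes in KO was 0.09, and up to 0.28 under the alternatives. Relative to that median Rb1 ran from 0.0046 to 0.212. In cTEC it was at 134 and 133 CPM in WT and 97.9 and 102 CPM in KO, the lowest of the 6 groups. Rb1 shares 488 exon bases with Rcbtb2 and 408 with Lpar6 on the opposite strand, and the libraries do not keep the strand, so reads there cannot be assigned to one gene.

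E2f3, an activating E2F, was lower in mTEChi. It was at 13.3, 14.3 and 13.7 CPM in mTEChi WT against 18, 19.1 and 15.2 CPM in mTEClo WT. The KO libraries were at 15.5, 13.2 and 12.9 CPM against 22.3, 18.7 and 18.2 CPM. The groups did not overlap, and the log2 fold change was -0.34 (SE 0.11, adjusted p = 0.00909) in WT and -0.51 (SE 0.11, adjusted p = 5.39e-04) in KO. The WT call was lost without mTEClo WT 2 (-0.27, adjusted p = 0.064), in the RPKM fits (-0.17 with a pseudocount of 0.1, adjusted p = 0.23) and in a fit of all 16 libraries (-0.32, adjusted p = 0.2). In cTEC it varied most within a group, at 20.6 and 14.6 CPM in WT and 20.8 and 9.21 CPM in KO.

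Relatives of E2f3 were called in both directions. Of 11 genes of the Rb and E2F families, 6 were higher and 3 lower in mTEChi WT (median 0.30), where 42.8% and 36.8% of all genes were. E2f7 (4.08) and E2f2 (3.10) were higher, as was the dimer partner Tfdp1 (2.09), while Tfdp2 (-1.28), E2f6 (-1.29) and E2f4 (-0.51) were lower. Of 18 E2F target genes, 13 were higher and 1, Tk1, lower (-0.72), with a median of 0.82 against 0.08 for all genes. Top2a (3.55), Ccna2 (3.45) and Rrm2 (3.29), which act in S phase and mitosis, led the higher. The 18 summed to 1012 to 1095 CPM in mTEChi WT, 419 to 468 CPM in mTEClo WT and 412 to 455 CPM in cTEC WT. Thymocyte markers, a dividing cell type outside the gate, summed to 145 to 230 CPM in mTEChi WT and 70.0 to 111 CPM in mTEClo WT. Markers of dendritic cells and macrophages summed to 541 to 562 against 66.8 to 69.7 CPM, with 11 of 11 higher in mTEChi. Of 13 thymocyte markers 5 were higher and none lower. B cell markers summed to 31.3 to 32.6 against 12.7 to 16.3 CPM. The part of such cells in the E2F targets and in the members was not tested.

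Of p53 and its partners, Mdm2 was higher in mTEChi, while Trp53 and Cdkn1a were not called. Trp53 was at 111, 107 and 116 CPM in mTEChi WT against 108, 104 and 97.7 CPM in mTEClo WT, and the groups overlapped. In KO it was at 123, 110 and 108 CPM against 119, 96 and 113 CPM. The log2 fold change was 0.10 (SE 0.07, adjusted p = 0.213) in WT and 0.06 (SE 0.07, adjusted p = 0.466) in KO by edgeR's test. In WT it passed with DESeq2's size factors (0.19, adjusted p = 0.039) and with log2(RPKM + 0.1) in limma (0.28, adjusted p = 0.0047). The median over all genes in WT was 0.08, and up to 0.25 under the alternatives. Relative to that median Trp53 ran from -0.063 to 0.151, and it kept its side in 7 of 10 alternatives. Mdm2, the ligase that degrades p53, was at 222, 229 and 225 CPM in mTEChi WT and at 135, 123 and 132 CPM in mTEClo WT. The KO libraries gave 201, 232 and 240 CPM against 130, 115 and 126 CPM. Its log2 fold change was 0.79 (SE 0.07, adjusted p = 8.32e-08) in WT and 0.87 (SE 0.07, adjusted p = 2.67e-08) in KO, called in each alternative.

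Cdkn1a, the inhibitor of cyclin-dependent kinases induced by p53, was at 159, 169 and 189 CPM in mTEChi WT and 175, 170 and 169 CPM in mTEClo WT, a log2 difference of 0.00 (SE 0.08, adjusted p = 0.961). In the KO groups it stood at 161, 195 and 166 CPM against 157, 162 and 152 CPM, 0.15 (SE 0.08, adjusted p = 0.0938). The KO difference was called under 7 of 11 alternatives, DESeq2's size factors (0.24, adjusted p = 0.014) among them, and without mTEChi KO 1 (0.21, adjusted p = 0.039). The median over all genes in KO was 0.09, and up to 0.28 under the alternatives. Relative to that median Cdkn1a ran from -0.048 to 0.165. Cdkn1a shares 273 of its 3553 exon bases with AC167363.2 on the opposite strand.

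Other genes of the p53 circuit changed in both directions. In mTEChi, 42.8% of all genes were higher and 36.8% lower in WT, and 43.2% and 37.2% in KO. Of 24 p53 target genes, 15 were higher and 7 lower in mTEChi WT (median 0.46) and 15 and 7 in KO (median 0.40). Their summed CPM went the other way, at 2261 to 2421 in mTEChi WT against 3288 to 3510 in mTEClo WT. Gdf15 (3.76), a secreted stress factor, Fas (1.57), a death receptor, and Sesn2 (1.84) were higher. Sesn1 (-1.01), Plk2 (-2.20) and Ddit4 (-1.31) were lower. Of 11 p53 relatives and regulators, 2 were higher in WT, Ubd (3.39) and the checkpoint kinase Chek1 (1.25), and 4 lower, with Trp63, the p53 relative that maintains stratified epithelium (-2.09), Usp7 (-0.39) and Ppm1d (-0.45) among them. In KO, 5 were higher and 4 lower.

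Cdkn2a was lowest in the cortex and highest in mTEChi. It was at 25.5, 26.2 and 29.6 CPM in mTEChi WT and 19.9, 18.3 and 16.6 CPM in mTEClo WT. The KO values were 27.8, 31.1 and 25.8 CPM against 15.9, 20.3 and 19.2 CPM. The groups did not overlap, and the log2 fold change was 0.56 (SE 0.11, adjusted p = 1.68e-04) in WT and 0.62 (SE 0.11, adjusted p = 6.65e-05) in KO. In a fit of all 16 libraries, which takes in the spread of cTEC, the call was lost (adjusted p = 0.47 in WT and 0.43 in KO). In cTEC it was at 2.2 and 4.87 CPM in WT, below mTEClo WT by a log2 difference of -2.29 (SE 0.31, adjusted p = 5.69e-04). The cTEC KO libraries, at 7.93 and 0.0842 CPM (591 and 6 counts), lay on either side of WT. The counts do not separate p16INK4a from p19ARF, which share exons of the gene.

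Other inhibitors of cyclin-dependent kinases were likewise higher in part, where 42.8% of all genes were higher and 36.8% lower in mTEChi WT. Cdkn1c (log2 fold change 2.03), Cdkn2b (1.19), which lies beside Cdkn2a, and Cdkn2c (1.01) were higher in mTEChi WT, and Cdkn2d (-0.81) and Cdkn1b (-0.35) lower. Of 8 polycomb genes, whose products repress the Cdkn2a locus, 1 was higher, Ezh2 (1.38), and 3 lower, Rnf2 (-1.04), Ring1 (-0.97) and Bmi1 (-0.63). Of 12 genes associated with senescence, 7 were higher and 3 lower (median 1.05). Their summed CPM went the other way, at 683 to 748 in mTEChi WT against 4574 to 4953 in mTEClo WT. The higher were led by Glb1 (1.29), Lmnb1 (0.83) and Il1a (4.21), and the lower by Igfbp5 (-3.67), Igfbp3 (-1.03) and Hmga1 (-0.47). Lmnb1 is known to be lost in senescent cells, so its direction is opposite to the list's name.

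Stat3 was lowest in cTEC and highest in mTEChi, with no overlap between the populations in either genotype. In WT it was at 349 and 302 CPM in cTEC, 553, 553 and 504 CPM in mTEClo and 633, 662 and 680 CPM in mTEChi. In KO it was at 398 and 307, at 513, 483 and 543, and at 627, 651 and 684 CPM. The log2 fold change of mTEChi against mTEClo was 0.29 (SE 0.06, adjusted p = 6.07e-04) in WT and 0.36 (SE 0.06, adjusted p = 9.08e-05) in KO. Stat3 shares 72 exon bases with Stat5a on the opposite strand. Stat5a was itself higher in mTEChi WT (0.96).

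Receptors that feed Stat3 and their kinases were also compared. Of 10 such genes, 5 were lower and 1 higher in mTEChi WT (median -0.73 against 0.08), where 36.8% of all genes were lower and 42.8% higher, and 6 and 1 in KO. The receptor for leukaemia inhibitory factor, Lifr (-3.97), that for oncostatin M, Osmr (-2.93), and their common chain gp130, Il6st (-3.17), were lower, and the kinase Tyk2 higher (0.34). The 10 summed to 1064 to 1098 CPM in mTEChi WT against 3554 to 3620 CPM in mTEClo WT and 3443 to 4070 CPM in cTEC WT. Of 7 ligands, 4 were higher and 2 lower. Lif (0.74), Osm (2.03) and Il11 (1.25) were the higher ones with the smallest p, and Ctf1 (-1.97) and Clcf1 (-0.77) the lower. Of 15 other STATs, their inhibitors and STAT3 targets, 3 were higher and 12 lower in each genotype. In WT these included Stat2 (-2.26) and the STAT3 target and inhibitor Socs3 (-2.86), against Stat5a, Stat5b (0.44) and Stat4 (0.82). Markers of fibroblasts and pericytes, cells that also carry gp130 receptors, summed to 370 to 394 CPM in mTEChi WT, 925 to 1131 CPM in mTEClo WT and 1090 to 1369 CPM in cTEC WT, and their part was not tested.

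**Figure D3:**
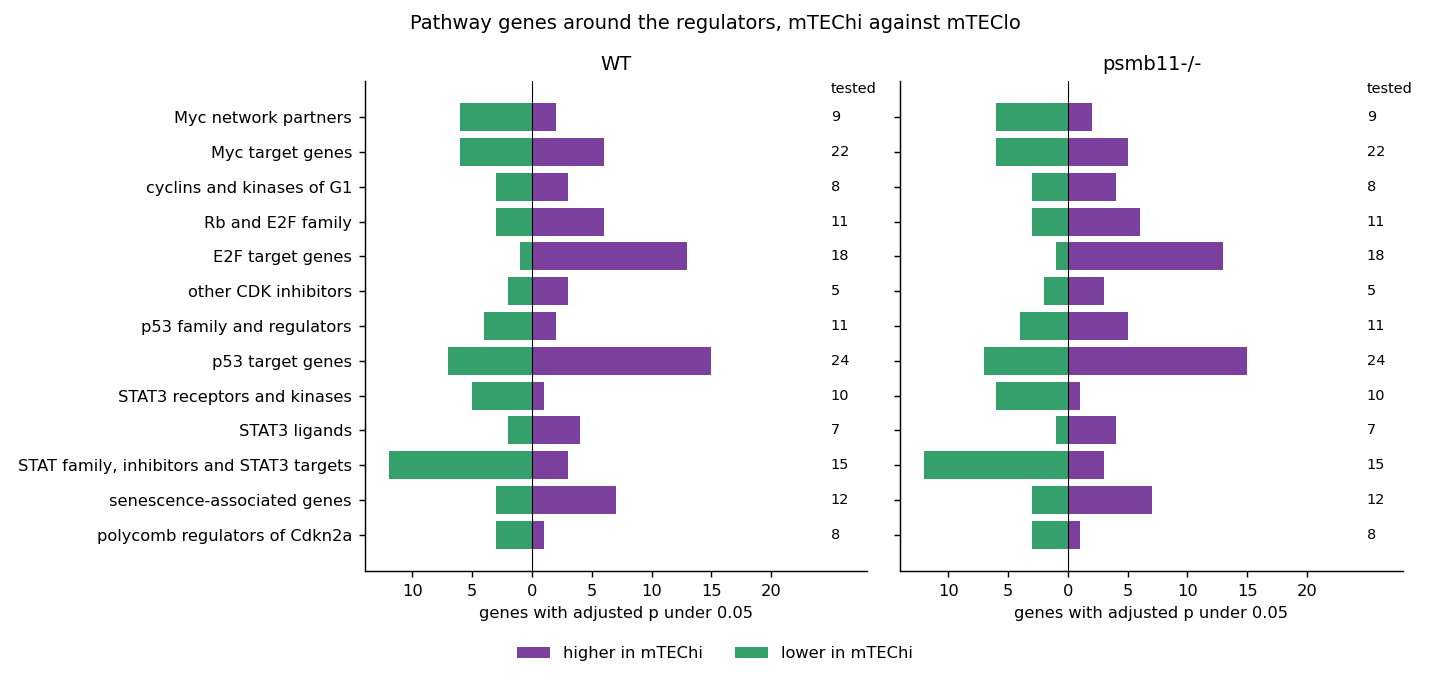
Number of genes with an adjusted p under 0.05 in each of 13 lists, mTEChi against mTEClo, in WT (left) and psmb11-/- (right). Bars to the right count genes higher in mTEChi and bars to the left genes lower, and the column of figures gives the genes tested. The E2F targets stand at 13 higher and 1 lower and the STAT family list at 3 higher and 12 lower in both genotypes.

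The comparison of cortex with medulla asked how cTEC stand beside the 2 medullary populations, with fits of 5 libraries each. In WT, cTEC had less Ccnd1, Stat3, Cdkn1a and Cdkn2a than mTEClo, and none of the 10 members was higher. These were 4 of 10 called lower, where 24.1% of all genes were, and 0 called higher, where 20.9% were. For Cdkn1a, at 77.6 and 69.2 CPM in cTEC WT, the log2 fold change was -1.15 (SE 0.07, adjusted p = 9.30e-06), and for Stat3 it was -0.65 (SE 0.08, adjusted p = 3.32e-04). Myc (0.04), Rb1 (0.10), E2f3 (0.09), Mdm2 (0.07), Trp53 (-0.15) and Mycn (-0.75) were not called, with adjusted p from 0.116 to 0.802.

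Against mTEChi in WT, cTEC had more Myc and less of 6 others. Called lower were 6 of 10, where 43.5% of all genes were, and called higher 1, where 30.8% were. The log2 fold changes were -3.60 for Mycn (SE 0.32, adjusted p = 8.69e-05), -2.93 for Cdkn2a (SE 0.33, adjusted p = 2.65e-04), -1.23 for Cdkn1a (SE 0.10, adjusted p = 5.54e-05) and -1.01 for Stat3 (SE 0.09, adjusted p = 7.16e-05). Mdm2, at 130 and 130 CPM in cTEC WT, gave -0.79 (SE 0.06, adjusted p = 4.33e-05). Myc gave 0.39 (SE 0.10, adjusted p = 0.0114). Trp53, at 90.9 and 86.1 CPM in cTEC WT, gave -0.33 (SE 0.07, adjusted p = 0.00473). The median over all genes was -0.24 here and -0.50 with DESeq2's size factors. Relative to that median, Trp53 differed by -0.08, and in 2 of 10 alternatives it lay on the other side. E2f3 (0.36, adjusted p = 0.0894) was called without cTEC WT 2 (0.58, adjusted p = 5.5e-04).

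The lists seen from the cortex followed the same lines. In cTEC WT, 30.8% of all genes were higher and 43.5% lower against mTEChi WT, and 20.9% and 24.1% against mTEClo WT. Of 18 E2F targets, 13 were lower in cTEC WT than in mTEChi WT and 0 higher (median -0.77 against -0.24), with Mki67 (-2.90), Top2a (-3.29) and Mcm5 (-1.56) having the smallest p. Of the 10 STAT3 receptors and kinases, 6 were higher and 2 lower, with Il6st (3.10), Lifr (4.17) and Egfr (2.76) leading the higher. Of the 15 other STAT genes, 9 were higher and 3 lower. Against mTEClo WT, E2F targets stood at 7 higher and 5 lower and the receptors at 2 and 2.

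In KO the comparisons with the cortex rested on the 2 discordant cTEC KO libraries. Against mTEClo KO, no member was called, where 3.32% of all genes were called higher and 2.87% lower. At an unadjusted p under 0.05 edgeR gave 3 members, where 4414 of 17393 genes passed. DESeq2 called 3, where it called 1823 genes higher and 1605 lower, and limma on log2(RPKM + 0.1) called 2. With 1 library left out, Ccnd1 ran from -0.66 to -0.34, Stat3 from -0.60 to -0.34, Mycn from -5.70 to -0.91 and Cdkn2a from -7.61 to -1.19. The log2 fold changes of Myc, E2f3, Trp53 and Mdm2 took both signs. The largest log2 fold changes were those of Cdkn2a (-2.17, SE 1.35) and Mycn (-1.85, SE 1.46), and those with the smallest p were Ccnd1 (-0.49, SE 0.12, adjusted p = 0.0715) and Stat3 (-0.46, SE 0.12, adjusted p = 0.0766). Of all genes called there, 577 were higher and 500 lower, against 452 and 983 with log2(RPKM + 0.1) and 524 and 227 with voom weights per library.

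Against mTEChi KO, 1 member was called higher in cTEC KO, where 20.7% of all genes were, and 4 lower, where 26% were. Myc was higher (0.45, SE 0.12, adjusted p = 0.035), and Stat3 (-0.90, SE 0.14, adjusted p = 0.00696), Mdm2 (-0.96, SE 0.27, adjusted p = 0.04), Cdkn1a (-0.64, SE 0.17, adjusted p = 0.0336) and Rb1 (-0.46, SE 0.11, adjusted p = 0.0208) were lower. The median over all genes was -0.26, and as low as -0.48 under the alternatives. Relative to that median Myc lay at 0.70, Stat3 at -0.64, Mdm2 at -0.70, Cdkn1a at -0.38 and Rb1 at -0.20. Each of these kept its side under the alternatives, Rb1 by as little as -0.017. Mycn (-4.41, SE 1.44, adjusted p = 0.0591) and Cdkn2a (-2.82, SE 1.58, adjusted p = 0.203) had the largest differences and the widest errors. With 1 library left out, Myc ran from 0.25 to 0.62, Stat3 from -1.11 to -0.72 and Mdm2 from -1.44 to -0.60. Cdkn1a ran from -0.88 to -0.43 and Rb1 from -0.57 to -0.43. The number of members called moved to 3 without mTEChi KO 1, and 2 without mTEChi KO 2 or without mTEChi KO 3. All genes called then fell to 2528 higher and 3739 lower, to 2288 and 3620, and to 2434 and 3653. Over all genes, 4021 were higher and 5055 lower, against 3105 and 8048 with log2(RPKM + 0.1) and, with the balance turned, 3493 and 2801 with voom weights per library. Of the 5, 4 were also called in WT in the same direction, all but Rb1; the difference between genotypes is tested below.

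Loss of Psmb11 was compared with WT within each population, which asks how the growth regulators respond to a missing thymoproteasome subunit. No member passed the main edgeR test in any population. In cTEC 0 of 10 members were called, where 0% of 16423 genes were. Among the alternatives, the fit of all 16 libraries needs caution in cTEC. An earlier account of these data found it to call many genes there in simulated counts that hold no effect. The fit of all 16 libraries called 3 members (Ccnd1, Rb1 and Cdkn1a) and 4700 genes there, DESeq2 called 867 genes, and leaving out 1 library gave 167 (without cTEC WT 1), 174 (without cTEC WT 2), 1083 (without cTEC KO 2) or 3501 (without cTEC KO 1). In mTEClo 0 of 10 were called, where 0.0606% of 19816 genes were, and in mTEChi 0 of 10, where 0.00505% were, which is Psmb11 alone. At an unadjusted p under 0.05 edgeR gave 3 members in cTEC (Ccnd1, Rb1 and Cdkn1a), where 2104 of 16423 genes passed. At the same cut it gave 1 in mTEClo (Ccnd1), where 3006 of 19816 genes passed, and 0 in mTEChi, where 447 did. DESeq2 called 1, 1 and 0 (Cdkn1a in cTEC and Ccnd1 in mTEClo). In mTEClo it called 261 genes higher and 337 lower. Psmb11 itself was called in mTEClo (-2.93, SE 0.24, adjusted p = 9.35e-05) and mTEChi (-3.34, SE 0.25, adjusted p = 2.16e-05) and not in cTEC (-7.19, SE 1.15, adjusted p = 0.0855), so that a large difference in cTEC could miss the threshold.

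**Figure D4:**
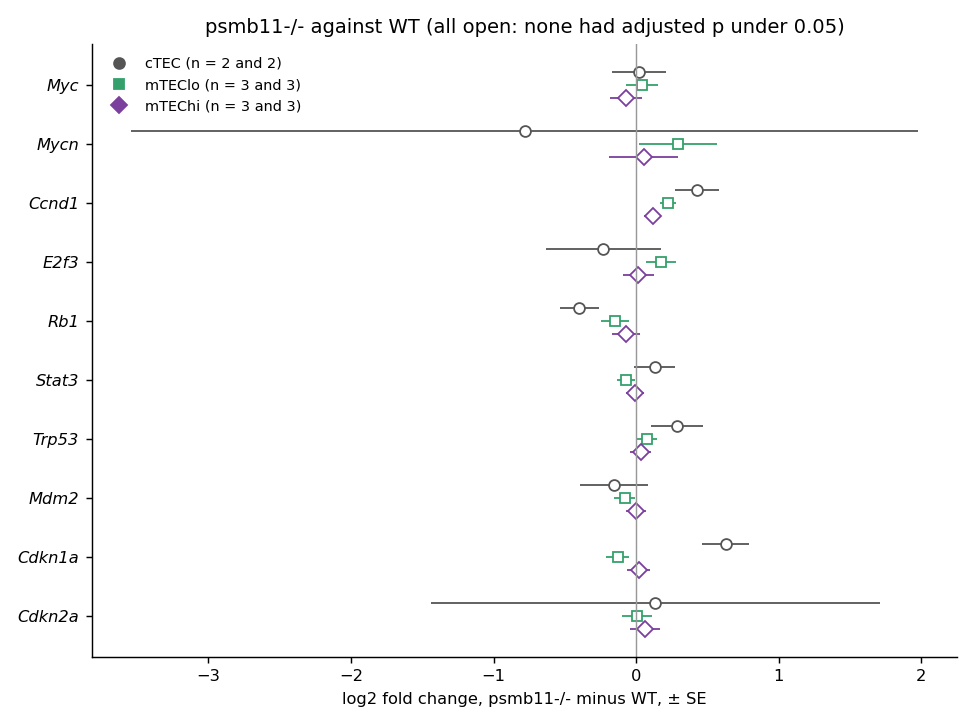
Log2 fold change of psmb11-/- against WT with its SE for the 10 genes, in cTEC (grey circles, 2 and 2 libraries), mTEClo (green squares) and mTEChi (purple diamonds, 3 and 3 libraries each). Symbols are open because no adjusted p was under 0.05. The cTEC bars of Mycn and Cdkn2a are the widest, at SE 2.76 and 1.58, and Cdkn1a lies at 0.63 in cTEC.

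Libraries of the genotypes did not overlap for 4 members in cTEC, where 45.2% of all genes did not overlap with 2 libraries a side. Cdkn1a was at 129 and 95.8 CPM in KO against 77.6 and 69.2 CPM in WT, a log2 difference of 0.63 (SE 0.16, adjusted p = 0.214). Ccnd1 was at 111 and 128 CPM against 90.4 and 90.3 CPM, 0.43 (SE 0.16, adjusted p = 0.334). Rb1 was at 97.9 and 102 CPM against 134 and 133 CPM, -0.40 (SE 0.14, adjusted p = 0.313). Both KO libraries of each of these 3 genes lay on the same side of WT. Trp53, likewise higher in both, was at 93.1 and 119 CPM against 90.9 and 86.1 CPM, 0.29 (SE 0.18, adjusted p = 0.577). For Mdm2, at 149 and 83.6 CPM in KO, E2f3, Cdkn2a, Mycn, Myc and Stat3, at least 1 KO library lay within the WT range or the 2 lay on opposite sides of it. Without cTEC KO 1, 4 members were called, Ccnd1 (0.57, adjusted p = 0.024), Trp53 (0.50, adjusted p = 0.034), Mdm2 (-0.57, adjusted p = 0.027) and Cdkn2a (-5.31, adjusted p = 0.017), and without cTEC KO 2 only Cdkn1a was (0.79, adjusted p = 0.012). No member was called in both of these fits, in which the lone KO library is assumed to vary as the WT libraries do.

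In mTEClo, libraries did not overlap for 2 members, where 17.4% of all genes did not overlap. Ccnd1 was at 183, 172 and 183 CPM in KO against 153, 156 and 150 CPM in WT, 0.22 (SE 0.06, adjusted p = 0.131). Cdkn1a was at 157, 162 and 152 against 175, 170 and 169 CPM, -0.13 (SE 0.08, adjusted p = 0.459). In mTEChi, libraries did not overlap for 1 member, where 8.96% of all genes did not. This was again Ccnd1, at 109, 111 and 108 CPM against 95.9, 100 and 108 CPM, 0.11 (SE 0.06, adjusted p = 1.00). Ccnd1 was thus higher in each KO group's mean and was not called by the main test in any population. It was called with DESeq2 in mTEClo (0.22, adjusted p = 0.0092). In cTEC it was called in the fit of all 16 libraries (0.42, adjusted p = 0.0053), to be read with the caution above. Without cTEC KO 1 its log2 fold change there was 0.57. The other members of the medulla had log2 fold changes between -0.15 and 0.29.

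Whether the genotype difference itself differed between populations was tested in fits with both. The difference between cTEC and mTEClo was called for 1 of 10 members, where 4.68% of all genes were called. This was Cdkn1a, with a log2 difference of 0.76 (SE 0.14, adjusted p = 0.0147) from 0.63 in cTEC and -0.13 in mTEClo. It was called with DESeq2 and in the RPKM fits, but not with voom weights per library (adjusted p = 0.21) or per population (0.23), nor without cTEC WT 2 (0.71, adjusted p = 0.061) or mTEClo WT 1 (0.75, adjusted p = 0.05). Between cTEC and mTEChi 0 members were called, where 5.35% of all genes were, and Cdkn1a gave 0.60 (SE 0.17, adjusted p = 0.0822). Cdkn1a was called with DESeq2 (0.65, adjusted p = 0.0069). It was also called in the fit of all 16 libraries (0.60, adjusted p = 0.019), with the same caution for cTEC. Without cTEC KO 2 the difference was 0.74. At an unadjusted p under 0.05 in the main fit edgeR gave 1 member, where 4675 of 19990 genes passed. With 1 library left out, the Cdkn1a difference ran from 0.59 to 0.90 between cTEC and mTEClo, and from 0.37 to 0.74 between cTEC and mTEChi. Between mTEChi and mTEClo 0 members were called, where 0.0101% of all genes were, and 0 with DESeq2. At an unadjusted p under 0.05 edgeR gave 0, where 1029 of 19816 genes passed. There the log2 differences ran from -0.24 to 0.15, so the population differences of the medulla above were not shown to depend on genotype.

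The main edgeR test called no gene of the pathway lists in KO against WT in any population, and the lists were not counted under the alternatives. In cTEC the medians were 0.28 for the 8 G1 cyclins and kinases, 0.04 for the 18 E2F targets, 0.01 for the 24 p53 targets and -0.20 for the 22 Myc targets, against 0.01 for all genes. Of the Myc targets, 4 of 22 had a log2 fold change above 0 there, and they summed to 1787 to 1919 CPM in KO against 2151 to 2280 CPM in WT. Markers of B cells, dendritic cells and macrophages had medians of 1.65 and 0.98 in the same comparison. In mTEClo and mTEChi the medians of the 13 pathway lists lay between -0.06 and 0.10.

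The genes whose log2 CPM over the 16 libraries followed a member most closely were looked up among genes with a mean of at least 5 CPM. The coefficients, Pearson's r over 16 libraries, describe likeness only, since libraries share populations and depth. Mycn was most like P2rx1 and Nuf2 (r = 0.985 each), the latter a kinetochore protein. Stat3 was most like Abca7 (0.992) and Dmpk (0.988), Mdm2 like Klhl2 (0.990) and Npas2 (0.988), and Ccnd1 like Gpx7 (0.986) and Tagln2 (0.978). Cdkn1a was most like Gpr182 (0.980) and Ddc (0.976). Cdkn2a was most like Krt79 (0.993) and Spink3 (0.992), and both of these were also near 0 in cTEC KO 2, at 0.014 and 0 CPM. The closest genes were less close for E2f3 (Dnlz, 0.947, and Sh3bp5l, 0.946), Rb1 (Lmbrd2, 0.927, and Ipo7, 0.905), Myc (Zfp37, 0.925, and Hdgfrp2, 0.921) and Trp53 (Eif2b4, 0.911, and Tmem120b, 0.903).

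In the deposited mm10 coordinates, 2 of the 10 members lie on the same chromosome, Trp53 (chr11:69580359-69591873) and Stat3 (chr11:100886810-100939511). Myc lies at chr15:61985341-61990361, Mycn at chr12:12936093-12941836, Ccnd1 at chr7:144929931-144939925 and E2f3 at chr13:29906575-29986063. Rb1 lies at chr14:73195502-73325791, Mdm2 at chr10:117688905-117710716, Cdkn1a at chr17:29090986-29100722 and Cdkn2a at chr4:89274473-89294619. All 10 are protein-coding genes counted over their exons by gene symbol.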

How the data were processed

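Gene counts and RPKM values of 16 libraries were used as the authors deposited them. Whole-number counts per gene symbol were made by the authors with HTSeq 0.5.4p1 after CASAVA 1.8.2 on mm10, per the submitters' processing notes; the aligner and annotation are not given in the sources used here. RPKM values were deposited by the authors per gene, from a step not described in the sources used here. Libraries came from TruSeq RNA v2, which keeps no strand, per the labels' protocols.

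Counts were tested with edgeR 4.0.16 (quasi-likelihood, TMM, filterByExpr) in R 4.3.3, p-values being adjusted by Benjamini-Hochberg across every gene in the fit and called under 0.05. The 4 mTEC groups shared 1 fit of 12 libraries, and other fits held only the groups compared. SE is the absolute log2 fold change over the square root of F. Levels are CPM, and RPKM served only for levels between genes and in alternatives. Rows that name no gene (13.7% to 30.4% of a library) were left out of library sizes. Alternatives used DESeq2 1.42.0, limma 3.58.1 on log2(RPKM + 0.1) or log2(RPKM + 1), voom weights, other filters and left-out libraries. The fit was checked on simulated counts.

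Members and gene lists were chosen with earlier results of these data known. The rule for named genes took the 10 members, at most 3 called genes of each list with the smallest p in a comparison, and the 2 genes most like each member. The text names up to 3 per direction, an extension chosen after the values were seen, and leaves some of these unnamed; 1 is not reported here. Lists not printed in full served as markers. Replicate numbers were checked for pairing by the correlation of deviations from group means. Only mTEClo KO and mTEChi KO passed 0.1 in every pair (0.247, 0.109 and 0.197), by the data and not by a stated pairing. No 2 libraries of a group agreed within sampling noise.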

Additional observations from a re-analysis of the deposited data

Results flagged for a closer look

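The response of 2 genes to the loss of Psmb11 differed between cTEC and mTEClo by the test of the difference itself (edgeR, both populations in one fit, Psmb11 being the targeted gene). For Cdkn1a the log2 difference was 0.76 (SE 0.14, adjusted p = 0.0147), from 0.63 in cTEC and -0.13 in mTEClo. KO lay above WT in 2 of 2 cTEC libraries and below it in 3 of 3 mTEClo libraries. Of all genes, 45.2% in cTEC and 17.4% in mTEClo did not overlap between genotypes, in either direction. The Cdkn1a call was lost with voom weights per library and per population. For Psmb11 it was -4.28 (SE 1.05, adjusted p = 0.0489), from -7.19 and -2.93, with 0 counts in cTEC KO 2.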

How the results depend on the processing

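Member log2 fold changes and counts of calls were recomputed under the alternatives, the fits of single groups of mTEC only for mTEC comparisons; list counts, motifs and likeness were not. In the medullary comparison Mycn, Ccnd1 and Mdm2 were called in every alternative and with any 1 library left out, in both genotypes. With all libraries kept, 15 member log2 fold changes turned sign under at least 1 alternative, none of them called in the main test, and 43 did with 1 library left out; the cause was not tested. The fits of 1 population alone and of the KO mTEC libraries alone were chosen after seeing the data. The replicate number as a block changed calls where its value is given. Mycn and Cdkn2a had 1 and 6 counts in cTEC KO 2, which limits them there. That library held 67810047 gene counts and 8541 genes at 0, against 74148029 and 5757 in cTEC KO 1. The cause was not tested. Where an arm keeps 1 library, it is assumed to vary as the others do.

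Settings stand in parentheses after each value, and gene names stand for log2 fold changes. For KO against WT in cTEC, the number of members called went from 0 to 1 (the replicate block, DESeq2), 3 (all 16 libraries). The number of genes called went from 0 to 383 (no count filter), 718 (the replicate block), 867 (DESeq2), 7 (log2(RPKM + 0.1)), 8 (log2(RPKM + 1)), 4700 (all 16 libraries), 221 (voom per library), 56 (voom per population). Myc went from 0.023 to -0.047 (voom per library), -0.0083 (voom per population). Cdkn2a went from 0.13 to -1.84 (the replicate block), -1.38 (log2(RPKM + 0.1), log2(RPKM + 0.1) unfiltered), -0.38 (log2(RPKM + 1)), -1.32 (voom per library), -1.80 (voom per population). The ranges in KO against WT in cTEC with 1 library left out were the number of members called 0 to 4, the number of genes called 167 to 3501, Myc -0.23 to 0.24, Mycn -4.62 to 0.17, E2f3 -0.86 to 0.22, Stat3 -0.014 to 0.27, Mdm2 -0.57 to 0.17, Cdkn2a -5.31 to 1.12. For KO against WT in mTEClo, the number of members called went from 0 to 1 (DESeq2). The number of genes called went from 12 to 25 (no count filter), 598 (DESeq2), 3 (log2(RPKM + 0.1), log2(RPKM + 1)), 2 (log2(RPKM + 0.1) unfiltered), 0 (all 16 libraries), 61 (voom per library), 1 (1 population alone). The ranges in KO against WT in mTEClo with 1 library left out were the number of genes called 5 to 88, Myc -0.082 to 0.18, Cdkn2a -0.080 to 0.11. For KO against WT in mTEChi, the number of genes called went from 1 to 4 (DESeq2), 14 (log2(RPKM + 0.1) unfiltered), 0 (all 16 libraries), 3 (voom per library). E2f3 went from 0.013 to -0.027 (voom per library), -0.0025 (voom per population). Stat3 went from -0.0062 to 0.027 (log2(RPKM + 0.1), log2(RPKM + 1), log2(RPKM + 0.1) unfiltered), 0.0012 (voom per library). Mdm2 went from -0.0019 to 0.024 (log2(RPKM + 0.1), log2(RPKM + 1), log2(RPKM + 0.1) unfiltered), 0.00044 (all 16 libraries), 0.029 (voom per library). The ranges in KO against WT in mTEChi with 1 library left out were Myc -0.13 to 0.010, Mycn -0.061 to 0.17, E2f3 -0.071 to 0.058, Stat3 -0.044 to 0.025, Trp53 -0.026 to 0.062, Mdm2 -0.057 to 0.072, Cdkn1a -0.078 to 0.089, Cdkn2a -0.017 to 0.13. For mTEChi against mTEClo in WT, the ranges with 1 library left out were Cdkn1a -0.068 to 0.061. For mTEChi against mTEClo in KO, the ranges with 1 library left out were Trp53 -0.016 to 0.11. For cTEC against mTEClo in WT, the number of genes called went from 7735 to 3375 (voom per population). Myc went from 0.035 to -0.012 (log2(RPKM + 0.1), log2(RPKM + 1), log2(RPKM + 0.1) unfiltered). E2f3 went from 0.088 to -0.0042 (the replicate block). The ranges in cTEC against mTEClo in WT with 1 library left out were Myc -0.036 to 0.10, E2f3 -0.16 to 0.29. For cTEC against mTEClo in KO, the number of members called went from 0 to 3 (DESeq2, all 16 libraries, voom per population), 2 (log2(RPKM + 0.1), log2(RPKM + 1)), 1 (log2(RPKM + 0.1) unfiltered). The number of genes called went from 1077 to 3428 (DESeq2), 1651 (log2(RPKM + 1)), 5993 (all 16 libraries), 2002 (voom per population). Myc went from 0.0055 to -0.081 (log2(RPKM + 0.1), log2(RPKM + 0.1) unfiltered), -0.078 (log2(RPKM + 1)), -0.073 (voom per library). Trp53 went from 0.054 to -0.047 (log2(RPKM + 0.1), log2(RPKM + 0.1) unfiltered), -0.046 (log2(RPKM + 1)). Mdm2 went from -0.015 to 0.0075 (DESeq2's size factors), 0.0076 (DESeq2), 0.010 (voom per library). The ranges in cTEC against mTEClo in KO with 1 library left out were the number of members called 0 to 7, the number of genes called 3 to 9835, Myc -0.27 to 0.23, E2f3 -0.96 to 0.10, Trp53 -0.21 to 0.27, Mdm2 -0.42 to 0.29. For cTEC against mTEChi in KO, the number of members called went from 5 to 0 (the replicate block), 8 (all 16 libraries). The number of genes called went from 9076 to 2534 (the replicate block). Ccnd1 went from 0.12 to -0.050 (log2(RPKM + 0.1), log2(RPKM + 0.1) unfiltered), -0.048 (log2(RPKM + 1)). E2f3 went from 0.11 to -0.052 (the replicate block), -0.16 (log2(RPKM + 0.1), log2(RPKM + 0.1) unfiltered), -0.10 (log2(RPKM + 1)). The ranges in cTEC against mTEChi in KO with 1 library left out were the number of members called 2 to 9, the number of genes called 5908 to 16074, E2f3 -0.61 to 0.58, Trp53 -0.29 to 0.055. For mTEChi minus mTEClo (difference of KO effects), the number of genes called went from 2 to 15 (DESeq2), 1 (log2(RPKM + 0.1)), 0 (log2(RPKM + 1), log2(RPKM + 0.1) unfiltered, all 16 libraries, voom per library, voom per population). The ranges in mTEChi minus mTEClo (difference of KO effects) with 1 library left out were the number of genes called 0 to 4, Myc -0.25 to 0.012, Mycn -0.41 to 0.039, Rb1 -0.0070 to 0.17, Trp53 -0.12 to 0.0049, Cdkn2a -0.052 to 0.14. For cTEC minus mTEClo (difference of KO effects), the number of members called went from 1 to 0 (voom per library, voom per population). The number of genes called went from 834 to 390 (the replicate block), 2383 (DESeq2), 2676 (all 16 libraries), 285 (voom per library), 75 (voom per population). Myc went from -0.020 to 0.0087 (DESeq2's size factors), 0.0088 (DESeq2). Cdkn2a went from 0.12 to -0.23 (the replicate block), -1.43 (log2(RPKM + 0.1), log2(RPKM + 0.1) unfiltered), -0.43 (log2(RPKM + 1)), -1.34 (voom per library), -1.81 (voom per population). The ranges in cTEC minus mTEClo (difference of KO effects) with 1 library left out were the number of members called 0 to 7, the number of genes called 309 to 6520, Myc -0.30 to 0.21, E2f3 -1.03 to 0.018, Trp53 -0.052 to 0.43, Mdm2 -0.48 to 0.23, Cdkn2a -5.31 to 1.09. For cTEC minus mTEChi (difference of KO effects), the number of members called went from 0 to 1 (DESeq2, all 16 libraries). The number of genes called went from 1070 to 348 (the replicate block), 3253 (DESeq2), 2161 (all 16 libraries), 216 (voom per library), 60 (voom per population). Cdkn2a went from 0.053 to -0.28 (the replicate block), -1.48 (log2(RPKM + 0.1), log2(RPKM + 0.1) unfiltered), -0.47 (log2(RPKM + 1)), -1.43 (voom per library), -1.86 (voom per population). The ranges in cTEC minus mTEChi (difference of KO effects) with 1 library left out were the number of members called 0 to 6, the number of genes called 492 to 6997, Myc -0.19 to 0.25, Mycn -4.75 to 0.087, E2f3 -0.95 to 0.17, Stat3 -0.076 to 0.24, Trp53 -0.018 to 0.40, Mdm2 -0.63 to 0.14, Cdkn2a -5.43 to 1.03.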
